A study of Mus musculus with 12 samples.

Results

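Spermatid-like cells (SLC) made in culture were compared with PGC-like cells (PGCLC) from day 6 of in vitro differentiation, to ask how gene expression differed between the early and the late stage of male germ cell differentiation in vitro. The comparison used 6 of the 12 arrays of the series, namely the 3 whose titles name SLCs and the 3 whose titles name day 6 PGCLCs, and it covered 13283 genes. SLCs were made by in vitro differentiation as well, and the labels give no day for them. For both groups the labels give the derivation in these words only: they do not say that SLCs were derived from PGCLCs, they name no stem cell line, strain, transgene, treatment or co-cultured cell, and they give FACS as the way of collection but no gate. The other 6 arrays measured primordial germ cells (PGC) from the genital ridge of BDF1 male fetuses at E12.5 and round spermatids (RS) from the testis of BDF1 mice at 3 weeks, and they serve here only for the test of whether the stage difference was the same in vitro and in vivo. The arrays are called biological replicates, but nothing says that they came from separate cultures, so p-values measure the spread between these arrays, which may be partly technical.

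Primordial germ cells are the embryonic precursors of sperm and eggs. They keep a network of pluripotency factors, divide, and then settle in the gonad, where male cells stop dividing, later resume as spermatogonia and enter meiosis. Round spermatids are the haploid products of meiosis. They build an acrosome, the enzyme-filled cap that meets the egg, assemble a flagellum, replace histones with transition proteins and then protamines, and switch to testis-specific copies of many metabolic enzymes.

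Signals are given in intensity units as deposited, and 3 signals in a row belong to replicates 1, 2 and 3. A floor of 30.7 units, the 25th percentile of the whole value table, was applied before the log2 transformation, and a gene was tested if it passed 92.0 units, the median of the table, on at least 3 of the 6 arrays. A gene was called, and is said to have risen or fallen, at a limma adjusted p under 0.05 with a difference of at least 2-fold between SLCs and PGCLCs. A fold is written as "at least" where the lower group lay at the floor. Where every array of a group lay at the floor, its values were equal in the fit. The SE and p-value of such a gene rest on the spread of the other group and on limma's variance model. They do not measure replication in the group at the floor. Signals of different probe sets are not compared with each other. Genes are named where they are landmarks of germ cell stages, the largest changes overall or among the 3 largest of their list, and any other gene named here was chosen after its values were seen. Fewer cells of a type and less RNA per cell cannot be told apart in such bulk samples.

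Array medians lay between 94.7 and 107 units, and Pearson's r across genes, which are not independent replicates, was 0.339 to 0.347 between SLC and PGCLC arrays and 0.986 to 0.989 among SLC arrays. The PGCLC arrays were less alike. Replicates 1 and 2 correlated at 0.914, and 2924 genes (22%) were at least 2-fold apart between them, against at most 229 between any pair of SLC arrays. Replicate 3 lay between replicates 1 and 2 for 2675 of those 2924 genes (91.5%), and correlated at 0.977 and 0.956 with them. On the linear scale it lay 35.3% of the way from replicate 1 to replicate 2. Whether the 3 PGCLC arrays are independent of each other was not tested, and every standard error and p-value here treats them as 3 separate samples. The correlation with the mean of the PGC arrays was 0.885, 0.978 and 0.928 for PGCLC replicates 1, 2 and 3. The log2 ratio of 3' to 5' probe sets was -0.34 in PGCLCs and -0.50 in SLCs for Gapdh (two-sided exact permutation p = 0.1, the lowest that 3 against 3 arrays allow) and 0.47 and 0.48 for Actb (exact permutation p = 1).

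Both groups carried markers of their labels. Pou5f1, a core pluripotency factor that PGCs keep, was at 6064, 6286 and 7054 in PGCLCs and 102, 70.3 and 81.96 in SLCs. Prm1, which encodes protamine 1, was at 47.8, 55.2 and 33.7 in PGCLCs and 20459, 20943 and 20286 in SLCs. For both genes every array of the high group was far above every array of the low group.

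Genes of the spermatid were higher in SLCs, genes of the dividing, pluripotent germ cell were lower, and most of the genes measured were called. Of 13283 genes tested, 3882 (29.2%) were higher and 3638 (27.4%) lower in SLCs, so that 7520 (56.6%) were called. Signals of the groups did not overlap for 10400 genes (78.3%), with SLC arrays above all PGCLC arrays for 5065 (38.1%) and below all of them for 5335 (40.2%). The median difference over all genes was -0.11 on the log2 scale.

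The rises were the larger changes. At least 16-fold differences numbered 1168 upward and 138 downward, and at least 64-fold differences 494 and 18. Of the genes that rose, 481 were at the floor on all PGCLC arrays, while 70 of the genes that fell were at the floor on all SLC arrays. Where a gene passed the filter level on all 6 arrays, rises were fewer than falls, 1597 against 2780. Every called gene had the same sign against each PGCLC array taken alone, and 3342 of the rises and 2851 of the falls were at least 2-fold against each of them. Among 3079 called genes with several probe sets, 2594 had all of them on the same side.

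**Figure D1:**
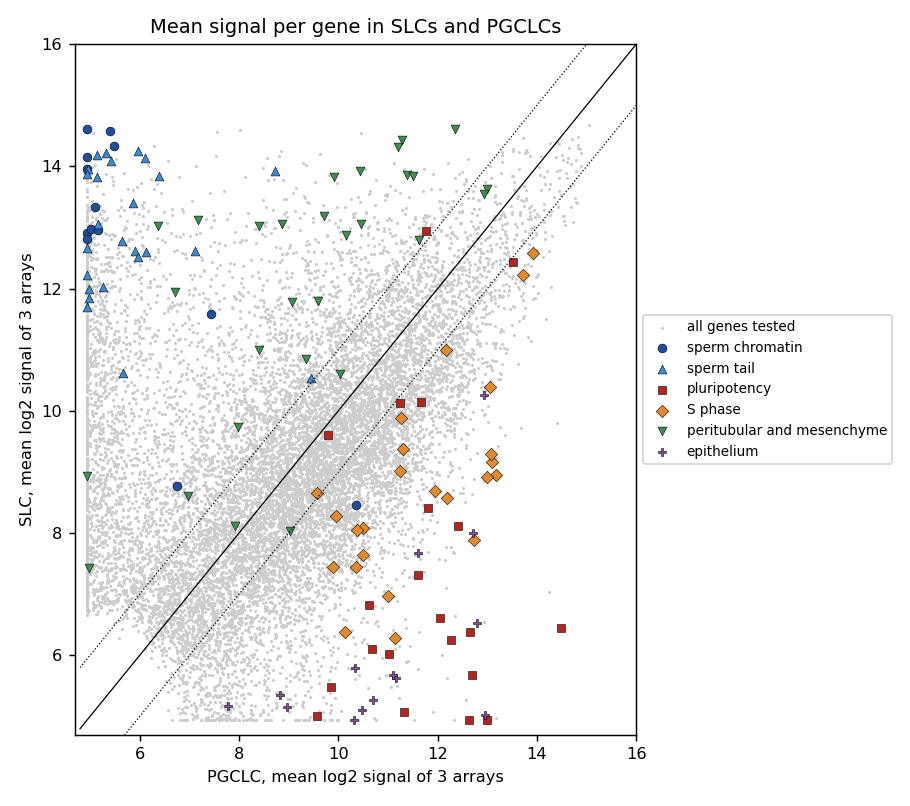
Mean log2 signal of each of 13283 genes on 3 PGCLC arrays (x axis) and 3 SLC arrays (y axis), with members of 6 gene lists coloured, a solid line of equal signal and dotted lines at a 2-fold difference. Sperm chromatin and sperm tail genes lie at the upper left, many at the floor of 30.7 units in PGCLCs, and pluripotency, S phase and epithelium genes lie below the diagonal.

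Gene lists were read against the background of 29.2% higher and 27.4% lower. The 7 lists of spermatid structures and regulators, from the acrosome to the ion channels of sperm, held 134 different genes with a measurement, of which 124 rose and 2 fell. Of those 134, 28 were at the floor on all PGCLC arrays, so that they could pass the filter only through SLCs. The same held for members above the floor but under the filter level on every PGCLC array, such as Prm1 and Catsper1. For all such members the filter itself favoured a rise, so setting their count against the background is no test. In the same way it favoured a fall for members under the filter level on every SLC array. The pluripotency, PGC program and epithelium lists hold such members. Of the 134, 24 passed the filter level on all 6 arrays. In the S phase and mitosis lists, 1 of 49 genes rose and 39 fell, and 46 of these 49 passed the filter level on all 6 arrays. The plot of differences by list shows each member.

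**Figure D2:**
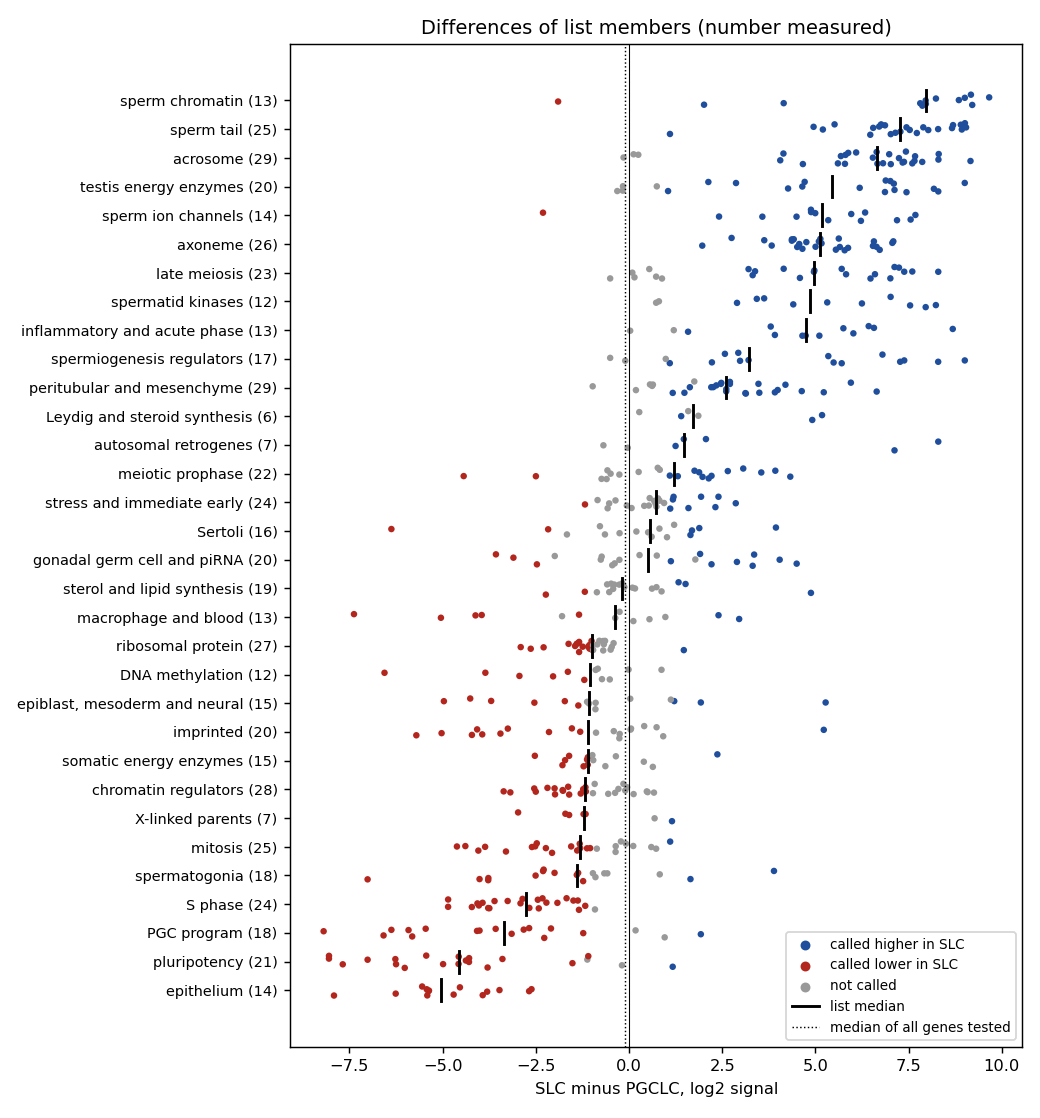
Log2 difference between SLCs and PGCLCs of every measured member of 32 gene lists, with the number measured beside each name, blue for called higher, red for called lower and grey for not called; black bars mark list medians and the dotted line the median of all genes tested, -0.11. Medians run from 7.96 for sperm chromatin to -5.04 for epithelium.

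The pluripotency network and the PGC program fell. Of 21 measured pluripotency genes 18 fell and 1 rose, with a median log2 difference of -4.57, and of 18 PGC program genes 15 fell and 1 rose, with a median of -3.36. With the filter asked of all 6 arrays, 6 of 9 pluripotency genes fell and 1 rose, with a median of -1.52. In the PGC program 5 of 7 then fell and none rose, with a median of -2.27. Dppa5a, an RNA-binding protein of pluripotent cells, was at 27029, 19212 and 23364 in PGCLCs and 87.3, 85.3 and 87.7 in SLCs. It fell 265-fold (log2 -8.05, SE 0.14, limma adjusted p = 9.37e-08). Sox2, a partner of Pou5f1, was at 9677, 6489.6 and 8573 in PGCLCs and under the floor on every SLC array, and it fell at least 265-fold. Pou5f1 itself fell 77.04-fold (log2 -6.27, SE 0.17, limma adjusted p = 4.82e-07).

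Some members stood apart between the PGCLC arrays and fell all the same. Nanog, another core pluripotency factor, was at 10147, 2985 and 8247, lowest on replicate 2, and under the floor on all SLC arrays (at least 205-fold, limma adjusted p = 1.42e-05). Dppa3, which protects the maternal genome from demethylation in the zygote and marks PGCs, was at 3567, 19189 and 11456, lowest on replicate 1, and at or near the floor in SLCs (at least 292-fold, limma adjusted p = 3.42e-05). Prdm1, the repressor that specifies PGCs, was at 561, 1940.2 and 1021 in PGCLCs and 272, 248 and 213 in SLCs and fell 4.27-fold (log2 -2.09, SE 0.44, limma adjusted p = 0.00479), a call that was lost in limma's test against a 2-fold threshold (limma adjusted p = 0.0565). The homeobox gene Rhox6, on the X chromosome, at 5505, 1240.1 and 3760.2 in PGCLCs, was under the floor in SLCs and fell at least 95.9-fold, and Rhox5, of the same family, at 7039, 8817 and 7529.6 against 83.7, 84.7 and 115, fell 82.9-fold. Tfap2c, a transcription factor of PGC specification, fell at least 56.3-fold to below the floor. The exceptions were Sox17, which rose by 1.93 on the log2 scale, and Klf4, a reprogramming factor at 5143, 1925 and 4328 in PGCLCs and 7990.0, 7889 and 7761 in SLCs (log2 1.17, SE 0.36, limma adjusted p = 0.0231). The call of Klf4 was lost without PGCLC replicate 2 (log2 0.74, under 2-fold), with array weights (log2 0.86), without SLC replicate 1, 2 or 3 (limma adjusted p = 0.0779, 0.0708 and 0.0681), with no filter (limma adjusted p = 0.0528) and against a 2-fold threshold (limma adjusted p = 0.600). Klf2, Tbx3, Ifitm3 and Pdpn were not called (log2 -1.12, -0.19, 0.96 and 0.18).

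**Figure D3:**
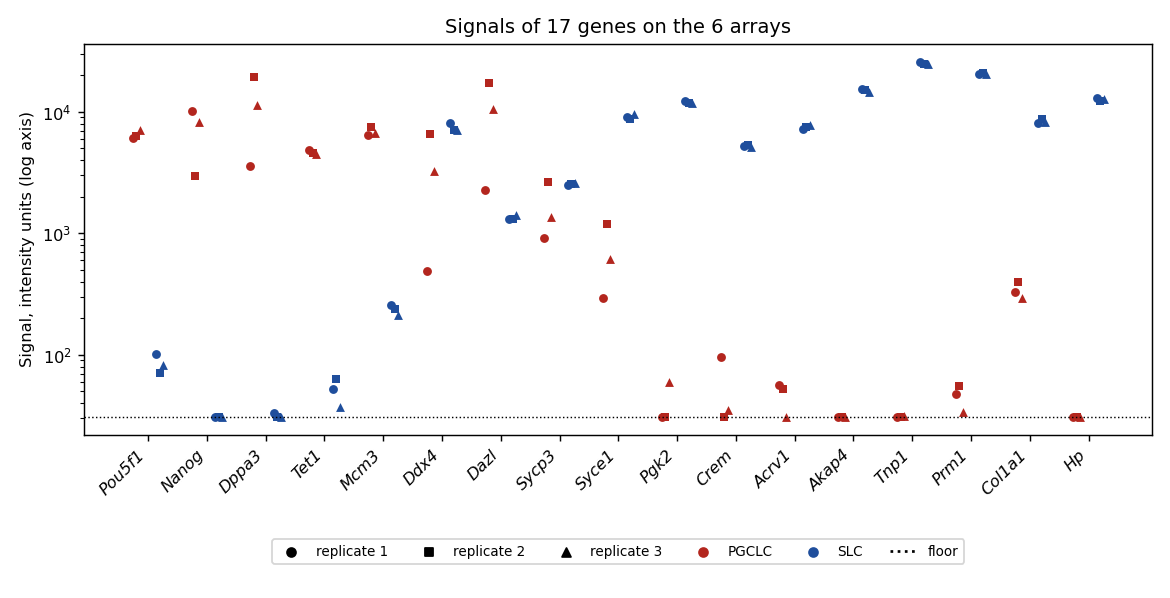
Signals of 17 genes on the 6 arrays, with intensity units on a log axis, red for PGCLC, blue for SLC, a circle, square and triangle for replicates 1, 2 and 3, and signals under the floor of 30.7 units drawn at the dotted line. Ddx4 and Dazl spread over more than 7-fold in PGCLCs. The genes from Pgk2 to Prm1 are near or at the floor in PGCLCs and bright in SLCs. Col1a1 and Hp, at the right end, are a collagen gene and an acute phase gene, and Col1a1 lies above the floor in PGCLCs.

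Genes of the gonadal germ cell and the piRNA pathway, which silences transposons, did not move as a block. Of 20 measured, 8 rose and 3 fell, and the median of 0.51 turned to -0.11, with 7 higher and 7 lower, without PGCLC replicate 1. Gtsf1, a piRNA pathway zinc finger gene, was at 588, 623 and 494 in PGCLCs and 12818, 12623 and 12858 in SLCs and rose 22.6-fold (log2 4.50, SE 0.11, limma adjusted p = 3.05e-07). Mael, which encodes a nuage protein of the same pathway, was at 276, 2547 and 1054 in PGCLCs and 15555, 14785 and 14328 in SLCs and rose 16.5-fold (limma adjusted p = 0.00289). Tex19.1, a retrotransposon control gene of germ cells, fell by 3.57 on the log2 scale.

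Ddx4 and Dazl, the RNA-binding landmarks of the germ line, depended on the PGCLC arrays. Ddx4, an RNA helicase, was at 486, 6507 and 3237 in PGCLCs and 8154, 7098 and 7130.1 in SLCs, so that SLCs lay above every PGCLC array but only slightly above replicate 2, and it was not called (log2 1.78, SE 0.90, limma adjusted p = 0.118). It was called without PGCLC replicate 2 (log2 2.57, limma adjusted p = 0.0118), in the fit of all 12 arrays (limma adjusted p = 0.0299) and with array weights (log2 1.18, limma adjusted p = 0.00116). Dazl, a translational regulator, was at 2284, 17220.0 and 10506 in PGCLCs and 1317, 1313 and 1402 in SLCs and fell 5.54-fold (log2 -2.47, SE 0.71, limma adjusted p = 0.0183). Its call was lost without PGCLC replicate 3 (log2 -2.22, limma adjusted p = 0.0626), without SLC replicate 1, 2 or 3 (log2 -2.46, -2.45 and -2.50, limma adjusted p = 0.0664, 0.0608 and 0.0569) and against a 2-fold threshold (limma adjusted p = 0.0983). Against PGCLC replicate 1 alone the difference was -0.77, under 2-fold.

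Meiotic prophase genes split. Of 22 measured, 12 rose and 2 fell, with a median of 1.20. The number that rose was 10 without PGCLC replicate 3 or any 1 SLC replicate and 13 without PGCLC replicate 2. It was 8 in limma's test against a 2-fold threshold. Syce3 and Syce1, which encode central element proteins of the synaptonemal complex, were at 72.6, 275 and 236 and at 294, 1196 and 616 in PGCLCs and at 3035, 3468 and 3598 and at 8998, 8732 and 9642 in SLCs. They rose 20.04-fold (limma adjusted p = 0.000314) and 15.2-fold (limma adjusted p = 0.000391). Spo11, the enzyme that makes meiotic double-strand breaks, rose 11.7-fold, or 8.37-fold between mean signals, to 1214 ± 60.8 (mean ± SD, n = 3), with PGCLC replicate 1 at the floor.

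Early meiotic genes were among those that did not rise. Mnd1, a cofactor of strand exchange, was at 558, 872 and 668 in PGCLCs and at or near the floor in SLCs and fell at least 21.6-fold (limma adjusted p = 5.09e-06), and Mei4, needed for break formation, fell at least 5.65-fold. Stra8, the retinoic acid response gene at meiotic entry, was at 209, 141 and 148 in PGCLCs and 290.1, 270.2 and 310.2 in SLCs (log2 0.82, SE 0.20, limma adjusted p = 0.00851), under the 2-fold limit. It was called without PGCLC replicate 1 (log2 1, limma adjusted p = 0.00211). Sycp3, an axial element gene, was at 919, 2657 and 1358 in PGCLCs and 2473, 2559 and 2599 in SLCs, with PGCLC replicate 2 above the SLC arrays (log2 0.77, SE 0.37, limma adjusted p = 0.101), and it was called without that replicate (log2 1.19, limma adjusted p = 0.000437). Dmc1, the meiotic recombinase, was at 337, 222 and 245 in PGCLCs and 176, 185 and 201 in SLCs and was not called (log2 -0.49, SE 0.20, limma adjusted p = 0.0595).

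Late meiosis genes had a higher median difference. Of 23 measured, 17 rose and none fell, with a median of 4.96. With the filter asked of all 6 arrays, 5 of 11 rose with a median of 0.88. Meiotic prophase then had 6 of 13 and 0.82, so the gap between these lists rests on members low in PGCLCs. For members under the filter level on every PGCLC array the filter favoured a rise. Pgk2, a testis-specific phosphoglycerate kinase, was at 12.3, 6.09 and 59.4 in PGCLCs and 12373, 11808 and 11892 in SLCs and rose at least 314-fold (log2 8.29, SE 0.27, limma adjusted p = 1.14e-06). Adam2, a sperm surface protein needed for fertilization, rose at least 194-fold to 7669 ± 342, and Papolb, a testis poly(A) polymerase, at least 167-fold to 7547 ± 52.1. Ldhc, the lactate dehydrogenase of germ cells, was at 271, 107 and 227 in PGCLCs and 25034, 24327 and 23238 in SLCs and rose 129-fold (limma adjusted p = 6.04e-06). Ccna1, the meiotic A cyclin, and Hspa2, a meiotic chaperone, rose at least 96.8-fold and 31.1-fold. Ybx3, Nek2, Pou5f2, Mybl1, Cdc25c and Aurkc were not called (log2 -0.51 to 0.88).

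Regulators of spermiogenesis rose with them, 14 of 17 with none lower and a median of 3.21. Crem, the transcription factor that activates haploid genes, was at 95.2, 6.92 and 35.2 in PGCLCs and 5219.5, 5288 and 5129 in SLCs, and rose at least 111-fold (log2 6.80, SE 0.43, limma adjusted p = 1.92e-05). All 3 of its probe sets had that sign, but the difference was 0.74 by the probe set of lowest variance, and it was 0.09 by the probe set that passed the filter level on all 6 arrays, neither of them called. Fhl5, which encodes a testis coactivator of Crem, was at 29.5, 34.2 and 1.99 in PGCLCs and 10366, 10039.9 and 9569.5 in SLCs and rose at least 313-fold (limma adjusted p = 7.5e-08). Rfx4, Mybl1 and Cpeb2 were not called (log2 0.98, -0.51 and -0.10).

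Sperm chromatin genes had the highest median of the 32 lists, with 12 of 13 higher, 1 lower and a median of 7.96. Tnp1, transition protein 1, was at 9.28, 2.62 and 31.1 in PGCLCs, at or just above the floor, and at 25797, 24546 and 24542 in SLCs. It rose at least 809-fold (log2 9.66, SE 0.10, limma adjusted p = 7.5e-08). Tnp2, the other transition protein, was under the floor on all PGCLC arrays and at 18732, 17687 and 18044 in SLCs (at least 590.3-fold). Prm2 was at 13.4, 59.3 and 41.9 in PGCLCs and 24331, 24124 and 24877 in SLCs (at least 576-fold), and Prm1 rose 460.3-fold (log2 8.85, SE 0.19, limma adjusted p = 2.05e-07). Hils1, a spermatid linker histone, was under the floor in PGCLCs and at 15676, 16184 and 15562 in SLCs (at least 514-fold, limma adjusted p = 7.5e-08). The gene that fell was Rnf8, a ubiquitin ligase of the DNA damage response (972, 1782 and 1301 to 366, 352 and 334, 3.74-fold). Of the 13 genes, 1 passed the filter level on all 6 arrays.

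Promoters of genes that rose held fewer CpG dinucleotides than those of genes that fell, which is given as a description without a test. Windows of 300 bases, from 250 before to 50 after the annotated start, were taken from the RefSeq annotation of GRCm38.p6 for genes with a single window, 8568 of the 13283 tested. The median number of CpG dinucleotides per window was 13 for genes that rose and 22 for genes that fell, beside 20 for all genes tested, and it was 6 for genes at least 16-fold higher and 17 for genes at least 16-fold lower. Windows with at most 3 CpG made up 19.8% of those of genes that rose, 2.3% of those of genes that fell and 35.0% of those of genes at least 16-fold higher, beside 7.8% for all genes tested and 33.4% for the 22862 genes with 1 window in the table.

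Crem binds the cAMP response element, and genes of transition proteins and protamines are among its textbook targets, so a pair of these promoters is shown for that motif. The element TGACGTCA and the looser form TGANNTCA, which includes it, were searched on both strands. The 150 bases before the RefSeq start (GRCm38.p6) are printed 5' to 3' on the strand of the gene for Prm1 (chr16:10796824-10796973, minus strand) and Tnp1 (chr1:73015900-73016049, minus strand), with the TGANNTCA match in capitals.
Prm1: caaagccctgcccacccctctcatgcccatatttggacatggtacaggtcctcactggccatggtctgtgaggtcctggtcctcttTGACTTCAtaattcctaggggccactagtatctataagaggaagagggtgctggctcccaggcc
Tnp1: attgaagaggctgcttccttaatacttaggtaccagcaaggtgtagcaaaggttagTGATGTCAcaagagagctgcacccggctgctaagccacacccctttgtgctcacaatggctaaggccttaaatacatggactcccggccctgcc
The match began 64 bases before the start in Prm1 and 94 bases before it in Tnp1, and the full 300-base windows held 1 and 6 CpG. The looser form was in 15.5% of windows of genes that rose, 8.35% of those that fell, 11% of all tested and 24.1% of genes at least 16-fold higher, against 14.7% of all windows in the table. It was in 5 of 12 sperm chromatin windows (Prm1, Prm3, Tnp1, Hils1 and H2al2a) and in 10 of 18 acrosome windows. The windows of Prm2 and Tnp2 held no match, so the printed pair does not stand for all protamine and transition protein genes. The full element TGACGTCA did not follow that order, at 2.69%, 3.00% and 3.15% for genes that rose, genes that fell and all genes tested, and 1.85% of all windows. Such a match describes the letters in a window, not a bound site.

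Acrosome genes rose in 26 of 29 cases with none lower, at a median of 6.66. Crisp2, a secreted protein of the acrosome and tail, was under the floor on all PGCLC arrays and at 18222, 17435 and 17086 in SLCs (at least 572-fold, log2 9.16, SE 0.10, limma adjusted p = 7.5e-08). Acrv1, a protein of the acrosomal matrix, was at 56.6, 52.4 and 29.4 in PGCLCs and 7178, 7506 and 7741 in SLCs and rose 166-fold, or 162-fold between mean signals. Acr, which encodes the protease acrosin, was at 35.5, 10.4 and 15.1 in PGCLCs and 2092, 1993 and 1639 in SLCs and rose at least 58.8-fold. Adam3 and Capza3, of the sperm surface and the sperm head skeleton, rose at least 316-fold and at least 315-fold from below the floor. Pick1, Gopc and Agfg1, which act in vesicle transport to the acrosome and are also active in other cells, were not called (log2 0.25, -0.15 and 0.12).

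By the probe sets used, the flagellum genes rose without exception among those measured. These were 25 of 25 in the sperm tail list with a median of 7.28 and 26 of 26 in the axoneme list with a median of 5.11. In the tail list 3 genes and in the axoneme list 5 passed the filter level on all 6 arrays. The outer dense fibre gene Odf2 rose, but was at log2 -0.80 by its probe set of lowest variance (limma adjusted p = 5.82e-05), under 2-fold. Odf1, an outer dense fibre protein, was at 5.82, 31.3 and 2.20 in PGCLCs and 15737, 15831 and 16257 in SLCs (at least 515-fold, limma adjusted p = 7.5e-08). Akap4, the X-linked scaffold of the fibrous sheath, was under the floor in PGCLCs and at 15341, 15138 and 14408 in SLCs (at least 486-fold). Oaz3, the antizyme of spermatids, was at 7.22, 43.5 and 33.5 in PGCLCs and 19347, 18569 and 18161 in SLCs (at least 526-fold). In the axoneme list, which covers parts that other cells with motile cilia share, the dynein light chain gene Dnali1 rose at least 136-fold from below the floor to 4192 ± 276, and Tctex1d1 and Spag6 rose at least 134-fold and at least 106-fold. The smallest differences were those of Spag5, which also serves the mitotic spindle, in the tail list (log2 1.10) and of Dnaic1 in the axoneme list (log2 1.96). The call of Spag5 was lost without PGCLC replicate 2 (log2 0.78) and with array weights (log2 0.97), both under 2-fold, and that of Dnaic1 without PGCLC replicate 3 (limma adjusted p = 0.0689), without any 1 SLC replicate (limma adjusted p = 0.0820 to 0.104) and with no filter (limma adjusted p = 0.0692). Both were lost against a 2-fold threshold (limma adjusted p = 0.672 and 0.207).

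Kinases of the spermatid rose in 10 of 12 cases and ion channels and transporters of sperm in 13 of 14. Tssk2, a testis-specific serine kinase, was under the floor in PGCLCs and at 9189, 9235 and 9267 in SLCs (at least 300.2-fold, limma adjusted p = 7.5e-08). Tssk6 and Tssk3, of the same family, rose at least 248-fold and at least 186-fold. Catsper1, a subunit of the calcium channel that drives hyperactivated motility, was at 80.2, 68.9 and 46.6 in PGCLCs and 2500.1, 2655 and 2598 in SLCs and rose 40.6-fold (log2 5.34, SE 0.22, limma adjusted p = 2.9e-06). Atp1a4, the sperm sodium pump, and Slco6c1, a testis anion transporter, rose at least 205-fold and at least 188-fold from below the floor, and Efcab9, an auxiliary Catsper subunit, at least 146-fold. Hvcn1, a proton channel gene, fell 4.95-fold (198, 447 and 343 to 99.7, 36.8 and 68.3, limma adjusted p = 0.00381), and Prkaca and Nek2 were not called (log2 0.80 and 0.73).

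Testis forms of energy enzymes rose, while their somatic counterparts fell or were not called, Acsl4 apart. Of 20 measured testis energy enzymes 16 rose and none fell, with a median of 5.45, and of 15 somatic counterparts 8 fell and 1 rose, with a median of -1.10. Gk2, a testis glycerol kinase, was under the floor in PGCLCs and at 16569, 15222 and 15611 in SLCs (at least 514-fold, limma adjusted p = 7.5e-08), and Slc16a7, a monocarboxylate carrier, rose at least 289-fold. Slc2a1, the glucose transporter of most cells, was at 16881, 4239 and 14181 in PGCLCs, lowest on replicate 2, and 1754, 1726 and 1754 in SLCs, and it fell 5.76-fold (log2 -2.53, SE 0.51, limma adjusted p = 0.00407). Cycs, somatic cytochrome c, fell by 1.79 on the log2 scale, while Acsl4, an acyl-CoA synthetase, rose by 2.37. With PGCLC replicate 2 as the sole PGCLC array, a setting added with the data in view, 5 somatic enzymes fell and 2 rose.

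The autosomal retrogenes Pgk2, Pdha2 and Utp14b rose while the X-linked genes they were copied from fell, but not every pair did so. The parent Pgk1 was at 16279, 6218 and 13262 in PGCLCs and 4934, 4736 and 4550.5 in SLCs and fell 2.33-fold (limma adjusted p = 0.0173), beside the rise of Pgk2. That call was lost without PGCLC replicate 1 (log2 -0.94, under 2-fold), without PGCLC replicate 3 (limma adjusted p = 0.0606), without any 1 SLC replicate (limma adjusted p = 0.0574 to 0.0602) and against a 2-fold threshold (limma adjusted p = 0.518). Pdha1, a subunit of pyruvate dehydrogenase, was at 5779, 3559.8 and 5232 in PGCLCs and 1643, 1585 and 1462 in SLCs and fell 3.05-fold, and its autosomal copy Pdha2 was at 2.69, 35.5 and 5.16 in PGCLCs and 4664, 4448 and 4359 in SLCs and rose at least 139-fold. Of 7 X-linked parents 5 fell and 1 rose, and 3 fell without PGCLC replicate 1, SLC replicate 2 or SLC replicate 3. Of 7 retrogenes 5 rose and none fell. Cstf2, an mRNA cleavage factor, fell by 2.98 on the log2 scale with 2 of its 3 probe sets on that side, and its copy Cstf2t was not called (log2 -0.69). In the ribosomal pair the copy Rpl39l rose (log2 1.47), and the parent Rpl39 was at 153, 107 and 64.5 in PGCLCs and 266, 272 and 161 in SLCs (log2 1.15, SE 0.38, limma adjusted p = 0.0301). The call of Rpl39 was lost without PGCLC replicate 3 (log2 0.82, limma adjusted p = 0.0745), without SLC replicate 1 or 2 (limma adjusted p = 0.103 and 0.1004), with no filter (limma adjusted p = 0.0620) and against a 2-fold threshold (limma adjusted p = 0.641). Utp14b rose by 1.25 on the log2 scale, a call lost against a 2-fold threshold (limma adjusted p = 0.134), and its parent Utp14a fell by 1.71. G6pd2, a copy of a glucose-6-phosphate dehydrogenase gene, rose at least 4.18-fold, and its parent G6pdx had no probe set of its own. Cross-hybridization between members of a pair was not tested.

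A larger share of X-linked than of autosomal genes fell. Of 443 X-linked genes 188 (42.4%) fell and 93 (21.0%) rose, with a median of -0.69, whereas of 12762 autosomal genes 3440 (27.0%) fell and 3749 (29.4%) rose, with a median of -0.09. The single autosomes ranged from 23.6% to 30.9% lower and from 26.2% to 33.3% higher. Among the 93 X-linked genes that rose, 16 were at the floor on all PGCLC arrays. Tsga8, a testis-specific gene, rose at least 469.6-fold and Tmsb15a at least 244-fold, both from below the floor on all PGCLC arrays, and no order is drawn between such limits.

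**Figure D4:**
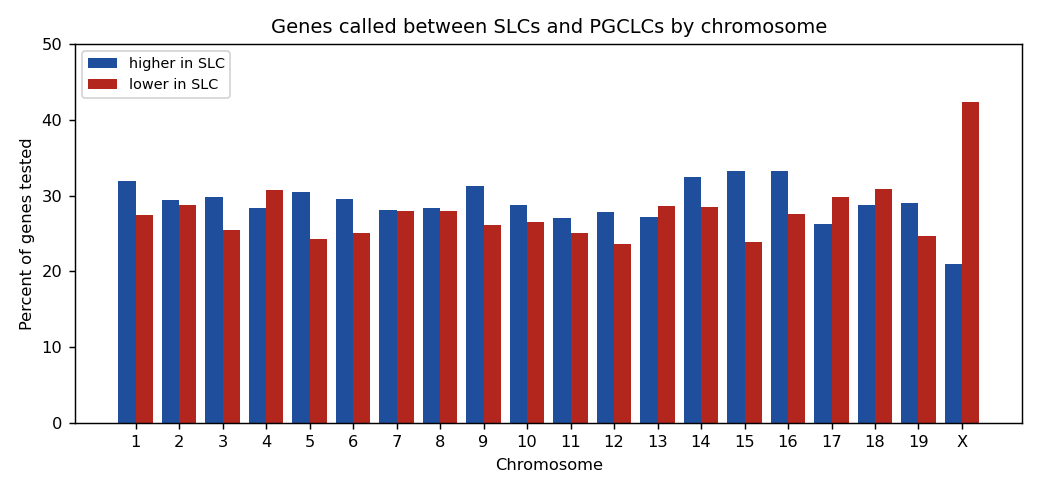
Percent of the genes tested on each chromosome that were called higher (blue) or lower (red) in SLCs. The X chromosome has 42.4% lower and 21.0% higher, outside the ranges of the autosomes, which are 23.6% to 30.9% lower and 26.2% to 33.3% higher.

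DNA replication genes fell almost as a whole. Of 24 measured S phase genes 23 fell and none rose, with a median of -2.76, and of 25 mitosis genes 16 fell and 1 rose, with a median of -1.32. Mcm3, a subunit of the replicative helicase, was at 6404, 7461 and 6655 in PGCLCs and 258, 238 and 214 in SLCs and fell 28.9-fold (log2 -4.85, SE 0.12, limma adjusted p = 3.41e-07), with all 5 of its probe sets on that side. Pola1, the catalytic subunit of DNA polymerase alpha, was at 1869, 2742 and 2224 in PGCLCs and 66.9, 81.3 and 86.97 in SLCs and fell 28.9-fold. Mcm6, another helicase subunit, was at 7758, 11559 and 8699 in PGCLCs and 565, 506 and 425 in SLCs and fell 18.6-fold (limma adjusted p = 3.94e-06). Gins2 was not called (log2 -0.91).

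Promoters of S phase genes often hold a match to the sites of E2F, the factor family that drives entry into S phase, and Mcm6 is printed as an example with a pair of matches. TTTCCCGC or TTTGGCGC, on either strand, was in 7 of 18 S phase windows (38.9%: Mcm3, Mcm5, Mcm6, Cdc6, Cdt1, Pola1 and Rfc3), 3.2% of all genes tested and 1.61% of all windows in the table. The 150 bases before the start of Mcm6 (GRCm38.p6, chr1:128359706-128359855, minus strand) are given 5' to 3' with the matches in capitals, the first of them beginning 110 bases before the start.
Mcm6: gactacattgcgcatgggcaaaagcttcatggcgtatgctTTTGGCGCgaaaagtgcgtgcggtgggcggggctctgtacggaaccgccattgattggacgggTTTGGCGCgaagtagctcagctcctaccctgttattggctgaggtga
Genes that fell held it in 4.69% of windows and genes that rose in 1.75%.

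Mitotic genes were less uniform. Cenpa, the centromeric histone, was at 4924, 5406 and 4942 in PGCLCs and 244, 189 and 193 in SLCs and fell 24.5-fold (log2 -4.62, SE 0.14, limma adjusted p = 7.4e-07). Kif11, a spindle motor, fell by 4.39 on the log2 scale and Mad2l1, of the spindle checkpoint, by 4.04. Ccnd2, a G1 cyclin, was at 2273, 1364 and 2044 in PGCLCs and 3732, 4302 and 3915 in SLCs (log2 1.10, SE 0.20, limma adjusted p = 0.00257), a call lost under 2-fold without PGCLC replicate 2 (log2 0.88), with array weights (log2 0.98) and by the mean of its probe sets (log2 0.73), and against a 2-fold threshold (limma adjusted p = 0.581). Plk1, Ccnb2, Aurka, Cdc20, Cenpe, Nek2, Ccnd1 and Ccnd3 were not called (log2 -0.86 to 0.73).

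Epigenetic regulators of the early germ line fell or were not called, and none rose. Of 12 DNA methylation genes 6 fell, with a median of -1.05, and of 28 chromatin regulators 16 fell, with a median of -1.19. Tet1, which oxidizes methylcytosine, was at 4873, 4585 and 4530.2 in PGCLCs and 52.1, 62.7 and 37.01 in SLCs and fell 94.3-fold (log2 -6.56, SE 0.21, limma adjusted p = 1.01e-06). Dnmt3b, a de novo methyltransferase, was at 2937, 994 and 2456 in PGCLCs and 138, 91.9 and 187 in SLCs and fell 14.5-fold, and Dnmt1, the maintenance enzyme, was at 4695, 7038 and 5577 in PGCLCs and 709, 808 and 713 in SLCs and fell 7.67-fold. Jarid2 and Suz12, of Polycomb complex PRC2, fell 10.3-fold and 9.09-fold, and Kdm6a, the X-linked demethylase of the Polycomb mark, 5.83-fold. Dnmt3a was at log2 -0.01 and Hdac1 at -0.05, neither called.

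Ribosomal protein genes fell in 15 of 27 cases, with 1 higher and a median of -1.01, and 10 of them fell under quantile normalization or median centring. Rpl14, Rpl12 and Rps6, structural proteins of the ribosome, fell by 2.91, 2.64 and 2.29 on the log2 scale. The exception in this list was Rpl39l, an autosomal ribosomal protein retrogene, at 3284, 8067 and 5285 in PGCLCs and 15044, 13962 and 14158 in SLCs (2.77-fold). Its parent Rpl39, counted with the X-linked parents and not here, was called higher as well (log2 1.15), a call lost in several alternatives.

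Spermatogonial markers mostly fell, 11 of 18 with 2 higher and a median of -1.38. The calls of Cd9 and Uchl1 were lost without any 1 SLC replicate (limma adjusted p = 0.0515 to 0.115). Those of Cd9, Uchl1, Foxo1, Sohlh2 and Taf4b were lost against a 2-fold threshold (limma adjusted p = 0.0514 to 0.497). Lhx1 and Zbtb16, not called here, were called lower with array weights (log2 -1.35 and -1.53). Sall4, shared by PGCs and spermatogonia, was at 5659.8, 7739.8 and 6592 in PGCLCs and 64.9, 30.6 and 67.3 in SLCs and fell 129-fold, or 123-fold between mean signals. Kit, the receptor of differentiating spermatogonia and PGCs, was at 2834, 3853 and 3183 in PGCLCs and 245, 156 and 218 in SLCs and fell 16.1-fold. Thy1, a surface protein of spermatogonia that stromal cells share, was at 45.3, 60.7 and 40.3 in PGCLCs and 722, 706 and 704 in SLCs and rose 14.8-fold (limma adjusted p = 6.63e-06). Ret, Bcl6b and Neurog3 were under the filter, and Nanos2 had no probe set of its own.

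Genes of connective tissue and peritubular cells rose in SLCs, 23 of 29 with none lower and a median of 2.61. Col1a1, a fibrillar collagen, was at 326, 397 and 293 in PGCLCs and 8013, 8739.7 and 8282 in SLCs and rose 24.8-fold (log2 4.63, SE 0.14, limma adjusted p = 6.72e-07). Lox, an enzyme that crosslinks collagen, was at 38.1, 147 and 102 in PGCLCs and 8303, 8348 and 8197 in SLCs and rose 99.9-fold, and Postn, a matrix protein, was at 178, 164 and 104 in PGCLCs and 9481, 8503 and 8861 in SLCs and rose 61.8-fold. Dcn, a matrix proteoglycan gene, rose 37.4-fold, or 25.9-fold between mean signals, with PGCLC replicate 1 at the floor. Acta2, smooth muscle actin, was at 1617, 1156 and 1403 in PGCLCs and 15432, 15406 and 15796 in SLCs and rose 11.3-fold (limma adjusted p = 1.83e-06). The summed signal of the 29 genes was 43759 to 52759 units on PGCLC arrays and 235330 to 239358 on SLC arrays, and 24 of the 29 passed the filter level on all 6 arrays. These markers moved with every spermatid list above, and their part in those results was not tested.

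Markers of the other testis cells gave a mixed picture. Among 6 genes of Leydig cells and steroid synthesis 3 rose and none fell, and 5 rose without PGCLC replicate 2. Star, which brings cholesterol into mitochondria, was at 18.4, 159 and 78.2 in PGCLCs and 2383, 2581 and 2949 in SLCs (36.2-fold, or 30.9-fold between mean signals), and Cyp11a1, the first enzyme of steroid synthesis, was at 62.2, 289 and 141 in PGCLCs and 4305, 4002 and 4039 in SLCs (30.2-fold, limma adjusted p = 0.000215). Nr5a1, their activator, was at 10.1, 416 and 167 in PGCLCs and 405, 531 and 473 in SLCs, with PGCLC replicate 1 at the floor and replicate 2 near the SLC values, and was not called (limma adjusted p = 0.103). It was called without that replicate (log2 2.70, limma adjusted p = 0.00655), in the fit of all 12 arrays (limma adjusted p = 0.0390) and with array weights (log2 1.53, limma adjusted p = 0.000223). The Leydig enzymes Cyp17a1 and Hsd17b3 were under the filter. The summed signal of the 6 genes was 3081 to 5312 units in PGCLCs and 14641 to 14991 in SLCs, and their part in the other results was not tested.

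Of 16 Sertoli cell genes 4 rose and 2 fell. The counts were 5 and 5 without PGCLC replicate 1 and 2 and 2 without PGCLC replicate 3 or any SLC replicate. Cst12, a cystatin gene, rose at least 15.3-fold, and Rhox5, which PGCLCs share, and Tjp1, a tight junction protein, fell by 6.37 and 2.17 on the log2 scale. Cst12 also rose from PGC to RS, by 3.68 on the log2 scale against 3.94 in vitro. Those changes were not called different (limma adjusted p = 0.608), so its rise is not particular to SLCs. The defining genes Amh, Fshr, Dhh, Shbg and Cldn11 were under the filter, and the summed signal of the 16 genes was 27853 to 29579 units in PGCLCs and 25322 to 26011 in SLCs.

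Inflammatory and acute phase genes rose in 11 of 13 cases, with a median of 4.74. Hp, the gene of haptoglobin, which takes up free haemoglobin, was under the floor on all PGCLC arrays and at 13069, 12176 and 12669 in SLCs (at least 411-fold, log2 8.68, SE 0.11, limma adjusted p = 7.5e-08). Il6, a cytokine, was under the floor in PGCLCs and at 2764, 2507 and 2678 in SLCs (at least 86.1-fold). Saa3, an acute phase protein, was at 518, 105 and 327 in PGCLCs and 28198, 22909 and 23516 in SLCs and rose 94.96-fold. The list's summed signal was 6248 to 35517 units in PGCLCs and 101671 to 108187 in SLCs, with replicate 2 the lowest PGCLC array by list median. Their part in the other results was not tested.

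Stress and immediate early genes moved less and depended on the PGCLC arrays. Of 24 measured 8 rose and 1 fell, with a median of 0.72. Without PGCLC replicate 2 the counts were 5 and 3, and with that replicate alone kept they were 16 and 1. Ier3, an immediate early gene, was at 1011, 382 and 792 in PGCLCs and 4815, 4982 and 4902 in SLCs (7.27-fold, limma adjusted p = 0.000398). Myc, a growth regulator, rose 4.98-fold, and Ddit3, of the unfolded protein response, rose 5.27-fold by 1 of its 2 probe sets. The summed signal was 47932 to 85605 units in PGCLCs and 92239 to 94106 in SLCs. Fos and Jun, at log2 0.07 and 0.73, were not called.

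Epithelial genes fell without exception among those measured, 14 of 14 with a median of -5.04. Of the 14, 3 passed the filter level on all 6 arrays. For members under that level on every SLC array the filter favoured a fall. Cdh1, E-cadherin, which PGCs and epithelia both use for adhesion, was at 10218, 5694 and 8437 in PGCLCs and 35.5, 32.1 and 2.30 in SLCs and fell at least 241-fold (log2 -7.91, SE 0.23, limma adjusted p = 6.78e-07). Krt18, a keratin of simple epithelia, was at 16205, 1914 and 11361 in PGCLCs and 70.9, 119 and 93.04 in SLCs and fell 76.6-fold, and its partner Krt8, at 14786, 1743 and 11573 in PGCLCs and 245, 284 and 242 in SLCs, fell 26.1-fold. Both keratins were lowest on PGCLC replicate 2, where they were still above every SLC array. Esrp1, a splicing regulator of epithelia, fell by 5.55 on the log2 scale. The summed signal was 27117 to 73390 units in PGCLCs and 2046 to 2174 in SLCs, and the part of these genes in the falls of the PGC lists was not tested.

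Blood and macrophage genes fell in 5 of 13 cases and rose in 2. Hbb-y and Hbb-bh1, embryonic globins, were at 1136, 14997 and 7843 and at 2008, 353 and 1476 in PGCLCs and under the floor in SLCs. Pecam1, an adhesion molecule of endothelium and PGCs, fell at least 17.4-fold. Lyz2, a macrophage lysozyme, rose by 2.95 on the log2 scale. Ptprc, the common leukocyte antigen, was under the filter, and the summed signal was 6636 to 18178 units in PGCLCs and 1829 to 2327 in SLCs. Their part in the other results was not tested.

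Of 15 genes of epiblast, mesoderm and neural progenitors 6 fell and 3 rose, and 10 fell with array weights. Zic1 and Otx2, neural transcription factors, fell at least 31.3-fold and at least 19.2-fold, with Otx2 under the floor on all SLC arrays. Mesp1, a mesoderm factor, went the other way, at 91.7, 99.2 and 95.4 in PGCLCs and 3475, 3712 and 3889 in SLCs (38.7-fold, limma adjusted p = 1.91e-07).

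Imprinted genes, which are expressed from a single parental copy, fell in 10 of 20 cases and rose in 1, with a median of -1.10. Mest was at 5596, 4997 and 5092 in PGCLCs and 98.9, 138 and 73.3 in SLCs and fell 52.2-fold (log2 -5.70, SE 0.24, limma adjusted p = 3.19e-06). Igf2, a fetal growth factor, was at 13732, 3251 and 10664 in PGCLCs and 477, 484 and 431 in SLCs and fell 16.8-fold. Phlda2, a growth restrictor of the placenta, was at 2891, 212 and 1649 and under the floor in SLCs (at least 32.6-fold). The member that rose was Dcn, which the mesenchyme list also holds. In the PGCLCs the median log2 signal of the list was 11.43, 9.88 and 10.76, lowest on replicate 2. With that replicate alone kept 6 rose and 8 fell.

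Sterol and lipid synthesis genes did not shift as a group, with 3 of 19 higher, 2 lower and a median of -0.18 whose sign turned in 5 of the alternatives, between 0.01 and 0.10. Scd1, a fatty acid desaturase, was at 1004, 177 and 606 in PGCLCs and 13296, 14750.1 and 13950.1 in SLCs and rose 29.4-fold (limma adjusted p = 0.000427). Elovl6, a fatty acid elongase, fell by 2.23 on the log2 scale. Cyp51, a sterol demethylase, rose by 1.52, but was at 0.61, under 2-fold, by the mean of its probe sets and at -0.29 by the probe set of lowest variance.

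**Figure D5:**
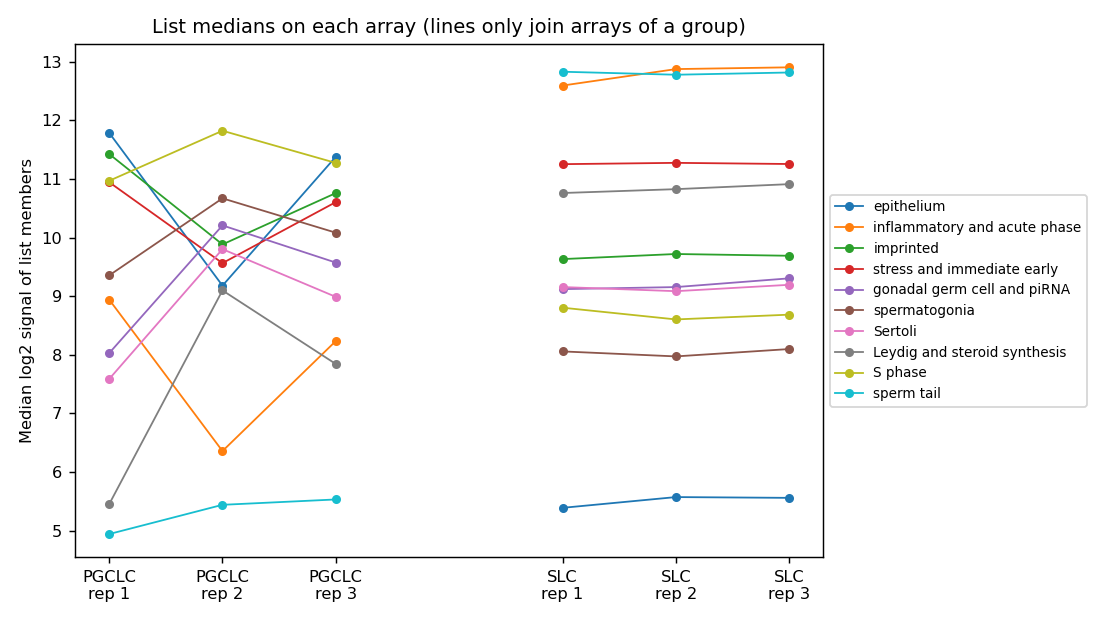
Median log2 signal of the measured members of 10 gene lists on each of the 6 arrays; lines only join arrays of a group. PGCLC replicates 1, 2 and 3 differ for imprinted genes (11.43, 9.88 and 10.76) and most other lists, while the SLC arrays lie close together.

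Across all genes, the largest rises above the floor on all 6 arrays were led by Prm1 and then by Plaat5, a phospholipase family gene, at 32.97, 75.3 and 53.7 in PGCLCs and 15574, 14912 and 15288 in SLCs (299-fold). Dbil5, a testis acyl-CoA-binding protein gene, rose 265-fold and Ropn1l, of the fibrous sheath, 261-fold. Spink2, an inhibitor of acrosomal proteases, was at 56.5, 55.4 and 51.3 in PGCLCs and 12389.7, 13003 and 12611 in SLCs (233-fold, limma adjusted p = 7.5e-08), and Fbp1, an enzyme of gluconeogenesis, at 73.7, 71.3 and 69.5 in PGCLCs and 15859.9, 16931 and 16869 in SLCs (231-fold). Spata33, Fam71e1 and Pabpc2 rose 211-fold, 209.6-fold and 187-fold. Trim36, a ubiquitin ligase gene, rose 188-fold by 1 of its 2 probe sets and was at log2 -1.28 by the other. Hmgb4 and Fabp9, a chromatin protein and a fatty acid-binding protein of spermatids, rose from below the floor to 16804, 16268 and 16319 and to 16728, 16488 and 16159 (at least 535-fold and at least 535-fold).

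The largest falls above the floor were, after Dppa5a, those of Bex1, Tet1, Rhox5, Pou5f1, Krt18, Trim71, Dppa4, Slc38a4 and Mest. Bex1, an X-linked gene, was at 24819.5, 13362 and 21866 in PGCLCs and 107, 163 and 131 in SLCs and fell 147-fold (log2 -7.20, SE 0.27, limma adjusted p = 2.08e-06). Trim71, an RNA-binding regulator of early development, was at 4384, 4182 and 4404 in PGCLCs and 59.5, 70.7 and 63.3 in SLCs and fell 67.2-fold. Dppa4, a chromatin protein of pluripotent cells, was at 3306, 7559.6 and 4830.5 in PGCLCs and 87.6, 70.2 and 72.4 in SLCs (64.7-fold). Slc38a4, an amino acid transporter gene, was at 5713, 1233 and 4365 in PGCLCs and 68.02, 60.2 and 40.5 in SLCs (56.99-fold), with the lowest PGCLC array again replicate 2.

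Whether the stage difference was the same in vitro and in vivo was tested as an interaction, the change from PGCLC to SLC minus the change from PGC to RS, over all 12 arrays and 14197 genes. The pairs share no arrays. In the same fit 3447 genes were higher in both comparisons and 3294 lower in both, while 194 were higher in vitro and lower in vivo and 19 the other way. The change was more positive in vitro for 2936 genes (20.7%) and more negative for 1571 (11.1%), and the split was 2357 and 1940 under quantile normalization. Such a difference can come from either stage, and these fitted values are no bounds where a group lay at the floor.

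Connective tissue genes had a more positive change in vitro in 27 of 29 cases, with a median of 2.61 in vitro and -0.96 in vivo. Lox changed by 6.64 in vitro and -0.74 in vivo (difference of log2 changes 7.38, SE 0.66, limma adjusted p = 4.48e-06). Hp changed by 8.68 in vitro and was at the floor at both stages in vivo (limma adjusted p = 4.03e-10). Only its SLC arrays lay above the floor, so that p-value rests on their spread and on limma's variance model. Inflammatory genes were more positive in 10 of 13 cases, stress genes in 15 of 24, with medians of 0.72 in vitro and -1.29 in vivo, and somatic energy enzymes in 11 of 15, with medians of -1.10 and -3.41. Cyp11a1 changed by 4.91 in vitro and -1.83 in vivo (difference of log2 changes 6.74, SE 0.62, limma adjusted p = 5.86e-06). X-linked genes were more positive in 186 of 443 cases and more negative in 43, with medians of -0.68 and -1.54, and Pdha1 changed by -1.61 in vitro and -4.76 in vivo.

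The 7 spermatid lists had smaller medians in vitro than in vivo. Beside 11.1% of all genes, the axoneme list had 13 of 26 more negative, with medians of 5.11 in vitro and 6.22 in vivo, the ion channel list 6 of 15, the kinase list 4 of 12 and the spermiogenesis regulators 4 of 17. The acrosome list had 5 of 30, the sperm tail list 4 of 25 and the sperm chromatin list none of 14, where Prm1 changed by 8.85 and 9.01. Acr changed by 5.88 in vitro and 7.26 in vivo (difference of log2 changes -1.39, SE 0.20, limma adjusted p = 0.000201). Mesp1 rose in vivo as well, by 6.45 against 5.27. Epithelial genes had a more negative change in 9 of 14 cases, with medians of -5.04 in vitro and -1.80 in vivo. Krt18 changed by -6.26 in vitro and -1.90 in vivo, from 9827 units in PGCLCs and 388 in PGCs (difference of log2 changes -4.36, SE 0.91, limma adjusted p = 0.00246).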

How the data were processed

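The 12 samples were hybridised to single-colour mouse expression arrays, and the deposited table holds 1 linear intensity per probe set and array, made by the authors with MAS5 per the submitters' processing notes, whose version is not given in the sources used here. All 12 arrays had been scaled to the same trimmed mean, tested on the table, so array totals carry no depth, and precision is set by how many arrays there are. Of 45101 probe sets, 34945 had a single gene symbol in the platform annotation (34741 matched to the RefSeq gene table by gene number), 932 had several, 9160 had none and 64 were controls. Only those with a single symbol were used.

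Values under 30.7 units, the 25th percentile of the table, were set to it, log2 was taken, and a gene was represented by its probe set of highest mean among those above 92.0 units on at least 3 of 6 arrays. The 6 arrays were fitted alone with limma 3.58.1 in R 4.3.3 (lmFit, eBayes with trend), p-values were adjusted by Benjamini-Hochberg over 13283 genes, and calls needed an adjusted p under 0.05 and a 2-fold difference. The interaction used all 12 arrays, with the filter over them. On simulated data with 200 genes moved for this comparison, over 13283 genes and 5 draws, 68.2% were recovered at a log2 change of 1.5 and 76.6% at 2. None had the wrong sign, and a mean of 17.2 and 16.2 false calls stood beside 136.4 and 153.2 recovered. Far more genes were called in the data, 7520, so these rates need not hold there.

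Gene lists numbered 32 and held 669 genes, of which 558 were measured, 44 were under the filter and 67 had no probe set of their own. The lists and the genes named were chosen with earlier results of these data known. The rule for named genes took landmarks of germ cell stages, the 10 largest rises and 10 largest falls above the floor on all 6 arrays without overlap, the 5 brightest genes of each group with the other group at the floor, and the 3 largest differences of each list. Alternatives covered scaling, floor, filter, probe set, variance model, call rule, the replicate block and each replicate left out, and 2 that keep a single PGCLC array were added after the data were seen.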

Additional observations from a re-analysis of the deposited data

Results flagged for a closer look

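The change from PGCLC to SLC was set against that from PGC to RS in a single limma fit of 12 arrays, and named genes whose changes differed by at least 2-fold at an adjusted p under 0.05 are given here. The change was more positive in vitro for 2936 genes and more negative for 1571 of 14197 tested. Values are the in vitro change minus the in vivo change on the log2 scale, fitted and not bounds where a group lay at the floor.

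Among germ cell and spermatid genes, the change was more positive in vitro for Prdm1 at 3.48, Mnd1 at 1.14 and Thy1 at 3.28. Thy1, which stromal cells share, was not called from PGC to RS. It was more negative for Pou5f1 at -1.06, Sall4 at -1.58, Acr at -1.39, Catsper1 at -1.31, Plaat5 at -1.03, Fam71e1 at -1.29 and G6pd2 at -1.83. Among genes of somatic cells, steroid synthesis and inflammation, the change was more positive in vitro for Hp at 8.68, Lox at 7.38, Cyp11a1 at 6.74, Il6 at 6.31, Star at 6.14, Saa3 at 5.43, Dcn at 4.55, Nr5a1 at 3.09 and Postn at 1.88. It was more negative for Krt18 at -4.36, Zic1 at -4.97, Hbb-bh1 at -2.14 and Mesp1 at -1.18. Mesp1 is placed here as a mesoderm factor, but it also rose from PGC to RS, by 6.45. Among metabolic, imprinted and stress genes, the change was more positive in vitro for Scd1 at 5.73, Acsl4 at 4.72, Myc at 4.52, Ier3 at 4.29, Pdha1 at 3.16, Slc2a1 at 2.91 and Cycs at 1.65. It was more negative for Phlda2 at -3.93 and Ddit3 at -1.32. The X-linked gene Bex1, of none of these groups, was more negative in vitro as well, at -1.67. Among ribosomal, replication and chromatin genes, the change was more positive in vitro for Rpl14 at 3.14, Rpl12 at 2.06, Rps6 at 1.595, Kdm6a at 1.28, Cstf2 at 1.14 and Pola1 at 1.07. It was more negative for Dnmt3b at -1.73.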

How the results depend on the processing

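Counts of genes higher and lower in SLCs stayed within 1.5 times the reported ones except that 1618 genes were higher when the filter was asked of all 6 arrays, where fewer genes were tested (9331), and 2225 were lower in limma's test against a 2-fold threshold. Leaving out 1 array in turn gave 3702 to 4039 higher, 3488 to 3785 lower and 4154 to 5200 genes with a different change in vitro and in vivo. The replicate block gave 3892 higher, 3655 lower and 4507 for the interaction, as 2929 more positive and 1578 more negative. Deviations from the group means correlated at 0.0302, -0.0143 and 0.00563 between arrays of the same replicate number, within -0.0391 to 0.0307 over all pairings. These values gave no sign of pairing by replicate number. They cannot decide whether such arrays shared a culture or batch, because the SLC arrays differed little from each other. With PGCLC replicate 1 alone kept 3856 genes were higher and 3687 lower, and with replicate 2 alone 4288 and 3615. Of the share of calls that were higher, 51.6% became 36.7% with the filter on all 6 arrays. By the probe set of lowest variance, Trim36 reversed to -1.28 and Cyp51 to -0.29, with limma adjusted p = 0.00465 and 0.0577, and the cause was not tested. The fit of array weights stopped before its tolerance was reached. Of the values under alternatives for the genes that the rule named, 2536 kept their direction and their side of the threshold, 13 passed it, 10 fell short of it and 2 reversed. Of list medians 657 stayed within the spread between replicates and 91 did not. Values near the floor have no order, and folds against them are limits.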
